A study of Mus musculus with 15 samples.

Results

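Kupffer cells are the resident macrophages of the liver, and 10 genes that mark their identity are described here: Clec4f, Timd4, Vsig4, Marco, Cd5l, Folr2, Id3, Spic, Nr1h3 and Adgre1. They were taken by symbol from the gene count tables, and all 10 of the 10 were found among 24411 genes and passed the filter on low counts that left 13055 genes to test. The series is bulk RNA-seq of mouse liver in 15 libraries of poly(A) RNA, with 4 libraries named TdTomato, 6 named LATS KO and 5 named Yap OE. The design text names a wild type, a Lats knockout and an over expression of Yap, and the TdTomato libraries are taken here as the controls. The labels give no allele, promoter, Cre driver, strain, age, sex or time point for any group, nor anything that all groups share. Their extraction text describes mice of a different design, so nothing was taken from it. Whether a group's libraries are from different animals is not stated, and p-values here therefore reflect only how these libraries vary, which may be technical.

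Kupffer cells line the sinusoids, where they take up bacteria, aged red cells and debris from the blood. They are seeded before birth and renew locally, while monocytes recruited from blood can enter the liver during injury and later take on the same identity. That identity is kept by signals from neighbouring cells (Notch ligands and bone morphogenetic proteins from endothelial and stellate cells, and the growth factor Csf1) that act through transcription factors such as Id3, Spic and the liver X receptor alpha, the product of Nr1h3. Timd4 marks long-established cells in particular and is gained late by cells that derive from monocytes, whereas Adgre1, which encodes F4/80, is shared with other macrophages. In a bulk library, fewer cells of a type and less RNA per cell cannot be told apart.

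The start regions of the genes are shown for 3 members that rose in both groups, since their windows hold matches to short motifs of factor families that act in macrophages. The sequences are RefSeq's for GRCm38.p6, 250 bases up to the start site, each read 5′ to 3′ on the strand of its gene. Capitals mark TGCTGA (the core recognition site of MAF family factors) and AGGTCA (the core recognition site of nuclear receptors, the family of Nr1h3), on either strand.
Cd5l, chr3:87357631-87357880, plus strand: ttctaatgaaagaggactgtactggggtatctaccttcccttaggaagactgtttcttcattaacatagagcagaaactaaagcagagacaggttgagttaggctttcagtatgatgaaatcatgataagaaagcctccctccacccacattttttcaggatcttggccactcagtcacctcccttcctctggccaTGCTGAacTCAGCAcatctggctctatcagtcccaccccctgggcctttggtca
Clec4f, chr6:83656117-83656366, minus strand: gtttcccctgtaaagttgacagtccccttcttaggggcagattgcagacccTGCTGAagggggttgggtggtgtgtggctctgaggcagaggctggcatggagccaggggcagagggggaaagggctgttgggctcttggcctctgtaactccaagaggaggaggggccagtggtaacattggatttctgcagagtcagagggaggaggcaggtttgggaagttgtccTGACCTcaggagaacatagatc
Timd4, chr11:46810549-46810798, plus strand: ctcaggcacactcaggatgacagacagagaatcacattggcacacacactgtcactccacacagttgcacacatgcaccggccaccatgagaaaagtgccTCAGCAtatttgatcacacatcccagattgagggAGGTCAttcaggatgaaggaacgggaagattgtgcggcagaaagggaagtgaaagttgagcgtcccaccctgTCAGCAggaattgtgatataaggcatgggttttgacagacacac
In Cd5l, TGCTGA began 54 bases before the start site and its reverse complement began 46 bases before it. Clec4f held TGCTGA at 199 bases before the start and the reverse complement of AGGTCA at 22 bases before it. Timd4 held the reverse complement of TGCTGA at 150 and at 44 bases before the start, and AGGTCA at 116. Of the 10 members, 9 had an entry among the RefSeq promoters, with 11 windows of 300 bases in all (250 before and 50 after the start). TGCTGA was found in 7 of the 11 windows, against 19.5% of all 32851 promoters of that length, and AGGTCA in 2 of the 11 against 16.3%. GAGGAAGT (PU.1) and GTGGGAA (RBPJ), also searched on both strands, matched 0 of the 11 windows, against 3.20% and 6.38% of all promoters. The reverse complement of TGCTGA can share its letters TCA with AGGTCA, which none of the printed matches did, and a match is a description of sequence only. In the windows of Cd5l, Clec4f and Marco, 0 CpG dinucleotides were found, while Id3 had 19 and the median promoter 7.

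The libraries held 6166680 to 28225360 gene counts each. TdTomato 1 and LATS KO 3 stood apart: 78.5% and 89.9% of their reads did not map (2.53% to 16.7% elsewhere), and they detected 8501 and 9710 genes, where the other 13 libraries detected at least 13372. Of the manipulated genes, Lats1 was at 0, 44.5, 46.0 and 28.7 CPM (counts scaled to library size) in TdTomato 1 to 4 and between 0 and 27.4 in LATS KO (edgeR adjusted p = 0.62), and Lats2 was not lower in LATS KO (log2 fold change 0.58, adjusted p = 0.695). The labels do not give the deleted part, so whole-gene counts do not check that label. Yap1 ranged from 146 to 212 CPM in Yap OE and from 94.9 to 115 in TdTomato (log2 fold change 0.82, edgeR adjusted p = 0.00433). Hepatocyte genes were abundant in all libraries, but markers of other liver cells were scarce in TdTomato: 14 macrophage genes summed to 26.4 to 62.3 CPM, 10 stellate genes to 0.077 to 11.9, and 10 sinusoidal endothelial genes to 31.4 to 71.8. A liver normally holds all of these cell types. Mpeg1 alone was at 21.1 to 51.0 CPM in TdTomato and made up most of the macrophage sum. The comparisons with TdTomato below share these 4 controls.

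Of the 10 members, 8 were higher in LATS KO than in TdTomato, and 8 were higher and 1 lower in Yap OE than in TdTomato, with log2 fold changes from 4.04 to 6.88 in LATS KO and from 3.92 to 5.60 in Yap OE for the 6 surface and secreted genes. Clec4f, Timd4, Vsig4, Cd5l, Folr2, Spic and Adgre1 rose in both groups, Marco passed the test in LATS KO, Id3 in Yap OE, and Nr1h3 fell in Yap OE. Among all 13055 genes, 10.04% were called higher and 0.973% lower in LATS KO, and 17.9% higher and 10.8% lower in Yap OE. Counts of called genes in every list below are to be read beside these shares. Timd4, Vsig4, Marco, Cd5l, Folr2, Spic and Adgre1 each held 5 counts or fewer in TdTomato 1. They passed the filter on low counts through the other groups, so against TdTomato a rise was nearly all they could show. Their calls are therefore a description only, and the same holds for genes near 0 in the controls in the lists below. The members' median log2 fold change was 5.32 in LATS KO and 4.85 in Yap OE, against 0.13 and 0.17 over all genes. No member was called between Yap OE and LATS KO by edgeR, where 0.988% of all genes were. Marco alone had an unadjusted p under 0.05 there (0.0217), DESeq2 called 0 members and voom with quality weights 4. These calls use edgeR's quasi-likelihood test with a Benjamini-Hochberg adjusted p under 0.05 over all genes tested, and fold changes are on the log2 scale with their standard error. With TdTomato 1 and LATS KO 3 left out, 8 members were called in LATS KO and 9 in Yap OE, and Clec4f in LATS KO was at 4.83. In that fit 13.7% of all genes were higher and 3.24% lower in LATS KO, and 27.2% higher and 21.2% lower in Yap OE. Counts below without these 2 libraries are to be read beside the shares of that fit. All 8 LATS KO calls were lost when only LATS KO and TdTomato entered the fit (edgeR adjusted p from 0.0817 to 0.151), where 1 gene of 12020 was called. Leaving out TdTomato 4 moved Vsig4, Marco, Cd5l, Folr2 and Adgre1 to 5.96, 8.10, 6.42, 5.33 and 6.12 in LATS KO and to 6.32, 5.14, 6.34, 5.57 and 6.30 in Yap OE, all by over 1.5 times in fold. Without TdTomato 2, 1 member (Clec4f) kept its LATS KO call, and without TdTomato 3 and without TdTomato 4 there were 4 and 5 calls.

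**Figure D1:**
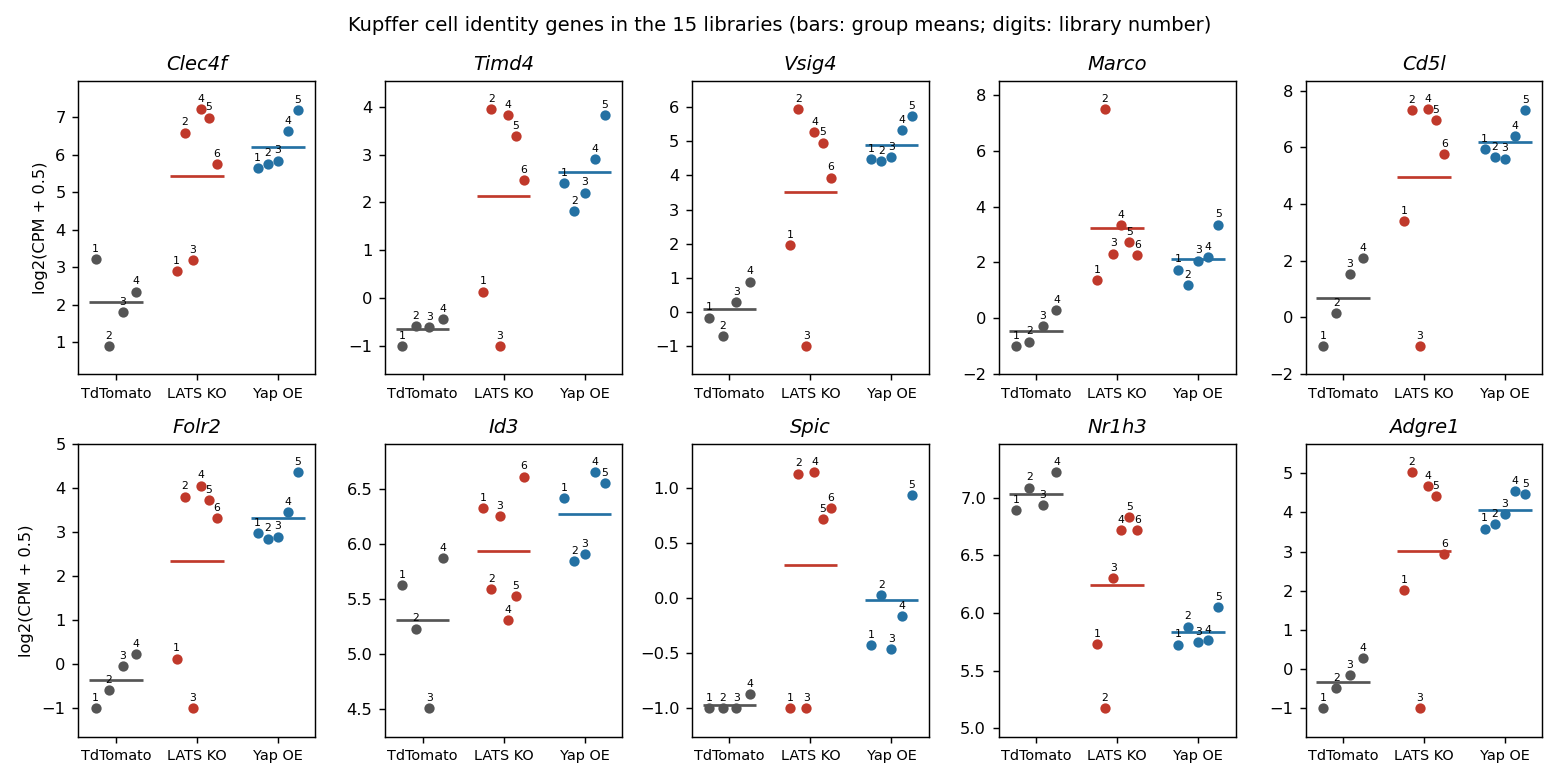
Level of each of the 10 genes in the 15 libraries, as log2(CPM + 0.5) on the vertical axis, with the groups on the horizontal axis. Points are libraries with their number, and bars are group means. For most genes LATS KO 2, 4, 5 and 6 sit with Yap OE, LATS KO 1 lies lower, and LATS KO 3 lies with TdTomato; Nr1h3 runs the other way and Id3 overlaps throughout.

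Clec4f encodes a C-type lectin that in mice is made almost solely by Kupffer cells, which makes it the most specific member. Its gene lies on the minus strand of mm10 at chr6:83644542-83656187. In TdTomato 1 to 4 it was at 8.75, 1.38, 3.02 and 4.60 CPM. In LATS KO 1 to 6 it was at 6.98, 95.5, 8.67, 147, 126 and 53.4 CPM, and in Yap OE 1 to 5 at 49.5, 53.7, 56.8, 98.7 and 146 CPM. Every Yap OE library was above every control, whereas LATS KO 1 and 3 were below TdTomato 1, the control with mostly unmapped reads, and above the other 3 controls. The log2 fold change was 4.04 ± 0.87 in LATS KO (edgeR adjusted p = 0.0112) and 4.19 ± 0.89 in Yap OE (edgeR adjusted p = 0.00486). Between Yap OE and LATS KO it was 0.15, with a 95% interval of -1.31 to 1.61.

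Timd4 encodes a receptor for phosphatidylserine, with which resident cells bind dying cells (mm10, plus strand, chr11:46810800-46844332). It was at 0, 0.166, 0.159 and 0.239 CPM in TdTomato, on 0 to 5 counts a library. LATS KO gave 0.595, 14.9, 0, 13.7, 9.91 and 5.05 CPM, and Yap OE gave 4.77, 3.04, 4.12, 6.97 and 13.7 CPM. LATS KO 2, 4 and 5 were as high as or above all but the highest Yap OE library. LATS KO 1 held 11 counts, and LATS KO 3 held none. The lowest count above 0 of any listed gene in LATS KO 3 was 15 (Fcgr2b, 1.67 CPM), so a 0 there sets no close upper limit. Timd4 rose by 5.60 ± 1.35 in LATS KO (edgeR adjusted p = 0.0174) and by 5.42 ± 1.36 in Yap OE (edgeR adjusted p = 0.00962). The LATS KO call was lost without TdTomato 2, 3 or 4, where the adjusted p ran from 0.0519 to 0.0579.

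Vsig4 encodes a complement receptor that captures opsonised bacteria from the blood (minus strand, chrX:96247203-96293438). Its levels were 0.387, 0.110, 0.715 and 1.34 CPM in TdTomato, and 3.35, 60.9, 0, 38.1, 30.7 and 14.8 CPM in LATS KO. Yap OE 1 to 5 held 21.97, 21.1, 22.9, 39.5 and 53.2 CPM. Apart from LATS KO 3, all LATS KO and Yap OE libraries were above the 4 controls. The rise was 5.24 ± 1.23 in LATS KO (edgeR adjusted p = 0.0148) and 5.60 ± 1.26 in Yap OE (edgeR adjusted p = 0.00612). Without TdTomato 2 the LATS KO value was 4.88 with an adjusted p of 0.0529.

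Marco, a scavenger receptor that binds bacteria and particles, had the most uneven pattern (minus strand, chr1:120474538-120505024). In TdTomato it was at 0, 0.055, 0.318 and 0.718 CPM. LATS KO gave 2.06, 179, 4.44, 9.65, 6.07 and 4.27 CPM, and Yap OE gave 2.83, 1.78, 3.67, 4.07 and 9.68 CPM. LATS KO 2 held 5830 counts, far above the 220 or fewer of the next libraries of its group, and the other 5 libraries of its group lay within the Yap OE range. Marco was the only member of which every LATS KO library was above every control, including LATS KO 3, a state that held for 6.65% of all genes. Its log2 fold change in LATS KO was 6.88 ± 1.61 (edgeR adjusted p = 0.0148), and 4.21 without LATS KO 2 (adjusted p = 0.0228). In Yap OE it was 3.92 ± 1.44 with an edgeR adjusted p of 0.0521, which did not pass, and without LATS KO 2 in the shared fit it was 3.95 with an adjusted p of 0.00898. Between Yap OE and LATS KO the difference was -2.96 (95% interval, unadjusted for the number of genes, -5.49 to -0.43; edgeR adjusted p = 0.237), and -0.27 without LATS KO 2.

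Cd5l encodes a secreted protein, also called AIM, that macrophages release into the blood (plus strand, chr3:87357881-87371073). It was at 0, 0.607, 2.38 and 3.73 CPM in TdTomato and at 10.1, 159.6, 0, 161, 123 and 53.9 CPM in LATS KO. In Yap OE it was at 61.0, 49.7, 48.1, 82.8 and 159 CPM. The highest LATS KO and Yap OE libraries were alike, LATS KO 1 was intermediate and LATS KO 3 held 0 counts. Cd5l rose by 5.63 ± 1.39 in LATS KO (edgeR adjusted p = 0.0194) and by 5.55 ± 1.40 in Yap OE (edgeR adjusted p = 0.0100). Their difference was -0.08, with a 95% interval of -2.22 to 2.07. The LATS KO adjusted p was 0.0676 without TdTomato 2 and 0.054 without TdTomato 3.

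Folr2 encodes a folate receptor found on tissue-resident macrophages (minus strand, chr7:101839988-101857194). Controls held 0, 0.166, 0.477 and 0.670 CPM. LATS KO libraries held 0.595, 13.4, 0, 16.1, 12.7 and 9.43 CPM, and Yap OE libraries 7.39, 6.71, 6.96, 10.4 and 20.03 CPM. LATS KO 1 lay inside the control range. The rise was 4.68 ± 1.30 in LATS KO (edgeR adjusted p = 0.0309) and 4.92 ± 1.32 in Yap OE (edgeR adjusted p = 0.0134). The LATS KO call did not survive leaving out any 1 of the 4 TdTomato libraries or LATS KO 2 (adjusted p from 0.0534 to 0.0947).

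Adgre1, the F4/80 gene, is made by macrophages in many tissues (plus strand, chr17:57358691-57483527). TdTomato libraries held 0, 0.221, 0.397 and 0.718 CPM, LATS KO libraries 3.57, 32.1, 0, 24.9, 20.8 and 7.15 CPM, and Yap OE libraries 11.5, 12.6, 14.9, 22.8 and 21.8 CPM. All Yap OE libraries and all LATS KO libraries except LATS KO 3 were above the controls. The log2 fold change was 5.40 ± 1.25 in LATS KO (edgeR adjusted p = 0.0143, and 0.054 without TdTomato 2) and 5.58 ± 1.27 in Yap OE (edgeR adjusted p = 0.00657).

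The 3 members that encode transcription regulators did not move as a unit. Spic, an ETS family factor known from red pulp and haem-handling macrophages, was barely counted (minus strand, chr10:88674772-88685015). The 4 TdTomato libraries held 1 count among them, in TdTomato 4 (0.048 CPM). LATS KO held 0, 1.69, 0, 1.71, 1.15 and 1.26 CPM, on 132 counts, and Yap OE held 0.246, 0.519, 0.224, 0.393 and 1.41 CPM, on 75 counts. Against that single control count, the ratio of pooled CPM was 74.5 in LATS KO (exact 95% interval 13.1 to 2964) and 34.6 in Yap OE (6.03 to 1386), intervals that cover counting error only. The edgeR adjusted p was 0.0279 in LATS KO and 0.0280 in Yap OE. Leaving out any 1 TdTomato library ended both calls, as did leaving out LATS KO 2 for LATS KO (adjusted p = 0.0515) and Yap OE 5 for Yap OE (adjusted p = 0.0602).

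Id3, an inhibitor of helix-loop-helix factors that Kupffer cells need but many other cells also make, was well counted in every library (plus strand, chr4:136143497-136145755). It was at 48.9, 37.1, 22.2 and 57.8 CPM in TdTomato and at 79.4, 47.6, 75.8, 39.1, 45.7 and 97.1 CPM in LATS KO. Yap OE held 84.9, 56.9, 59.4, 99.9 and 93.0 CPM. The groups overlapped, and LATS KO 1 and 3, the lowest for most other members, were among the higher LATS KO libraries here. In Yap OE Id3 rose by 0.92 ± 0.33 (edgeR adjusted p = 0.0445), a call lost without any one of TdTomato 2 or 3, LATS KO 1 or Yap OE 1, 4 or 5 (adjusted p from 0.0502 to 0.123). Its log2 fold change in LATS KO was 0.63 ± 0.31 with an edgeR adjusted p of 0.231.

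Nr1h3, the liver X receptor alpha of both hepatocytes and macrophages, ran opposite to the rest (minus strand, chr2:91184061-91202834). TdTomato 1 to 4 held 118, 135, 122 and 149 CPM, LATS KO 1 to 6 held 52.5, 35.6, 78.4, 105, 113 and 105 CPM, and Yap OE 1 to 5 held 52.4, 58.5, 53.2, 53.9 and 65.6 CPM. Every LATS KO and every Yap OE library was below every control. Nr1h3 fell by 1.21 on the log2 scale in Yap OE (SE 0.28, edgeR adjusted p = 0.00715). In LATS KO the log2 fold change was -0.68 ± 0.27, and with an edgeR adjusted p of 0.115 it was not called. Its level tracked the mean of 10 hepatocyte genes over the 15 libraries (Pearson r = 0.88), among which Tat fell in both groups (by 1.42 in LATS KO and 2.95 in Yap OE, edgeR adjusted p = 0.0319 and 0.00115). Whether hepatocyte RNA accounts for the Nr1h3 difference was not tested.

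**Figure D2:**
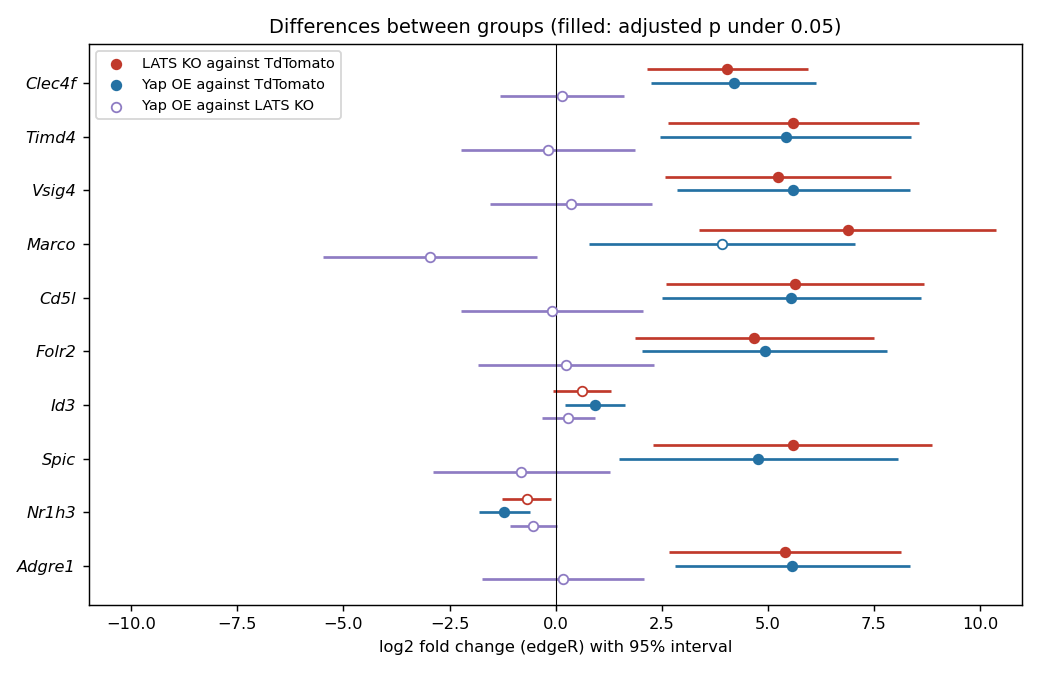
Log2 fold change of each gene (horizontal axis) with its 95% interval for the 3 comparisons of groups, by gene on the vertical axis. Filled points have an edgeR adjusted p under 0.05. Both comparisons with TdTomato lie near 4 to 7 for 8 genes, apart from Id3 and Nr1h3, and the intervals for Yap OE against LATS KO include 0 except for Marco, at -2.96.

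For 8 of the 10 members every Yap OE library was above every TdTomato library, which held for 28.3% of all genes tested. The exceptions were Id3 and Nr1h3. For 1 of 10, Marco, the same was true of LATS KO. Apart from Clec4f, these 8 members passed the filter on low counts through the other groups, so their share and that over all genes are not alike. LATS KO 3 was at or below a control for 7 other members that rose, and for Clec4f the overlap rested on TdTomato 1. LATS KO 3 held 0 counts for 6 members (Timd4, Vsig4, Cd5l, Folr2, Spic and Adgre1) while it held 78 counts of Clec4f, 40 of Marco, 682 of Id3 and 706 of Nr1h3. TdTomato 1, the other library with mostly unmapped reads, held 0 counts for Timd4, Marco, Cd5l, Folr2, Spic and Adgre1, 5 of Vsig4, and with 113 the most Clec4f counts of its group.

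Per kilobase of exon, the order of the group mean levels differed between groups. In TdTomato, Nr1h3 (52.1 CPM per kb, SD 5.54) and Id3 (23.2, SD 8.61) stood above the other 8, of which Clec4f was the highest at 1.80 (SD 1.28). In LATS KO, Cd5l (41.6, SD 35.8), Id3 (35.8, SD 12.97), Nr1h3 (32.4, SD 12.6) and Clec4f (29.5, SD 24.1) were within 1 SD of each other. In Yap OE, Id3 (44.0, SD 10.9), Cd5l (39.4, SD 22.8), Clec4f (32.7, SD 16.7) and Nr1h3 (22.6, SD 2.18) led, followed by Vsig4 at 21.4 (SD 9.59) and Folr2 at 6.66 (SD 3.65). Spic was the lowest in every group, at 0.252 in LATS KO and 0.145 in Yap OE.

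The ratio of a Kupffer gene to a gene of all macrophages was taken inside each library, and it depends on the level of both genes. Csf1r, the receptor for Csf1 on all monocytes and macrophages, was at 0, 0.772, 2.86 and 2.35 CPM in TdTomato. It was at 94.1, 294, 88.1, 79.8, 60.4 and 29.4 CPM in LATS KO and at 164 to 230 CPM in Yap OE. Csf1r rose by 6.16 ± 0.87 in LATS KO (edgeR adjusted p = 0.00299) and by 7.06 ± 0.92 in Yap OE (edgeR adjusted p = 0.000635). The libraries with the most Csf1r were not those with the most Clec4f. Clec4f per Csf1r count was 0.0742, 0.325, 0.0984, 1.84, 2.09 and 1.82 in LATS KO 1 to 6. It was 0.239, 0.253, 0.346, 0.430 and 0.751 in Yap OE, and 1.79, 1.06 and 1.96 in TdTomato 2 to 4, on 14 to 49 Csf1r counts. Against the protease gene Ctss, another marker of all macrophages, the gap was smaller, with 0.427, 0.520, 0.332, 2.28, 2.74 and 1.82 in LATS KO and 1.21 to 1.62 in Yap OE. The controls were at 113, 4.17, 3.80 and 2.13, on 1 to 45 Ctss counts, all above the Yap OE libraries. LATS KO 1 and 3 were below, and LATS KO 4, 5 and 6 above, all 5 Yap OE libraries by both ratios, and LATS KO 2 was inside their range by Csf1r and below it by Ctss. Csf1r and Ctss did not move alike. Median Csf1r was 84.0 CPM in LATS KO and 208 in Yap OE, and median Ctss was 37.7 and 41.5. LATS KO 1 held 94.1 CPM of Csf1r and 16.3 of Ctss. The ratios therefore differ with the macrophage gene chosen, and no test was made of them.

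Whole lists were compared in the same way. The mean log2(CPM + 0.5) of 6 surface and secreted members (Clec4f, Timd4, Vsig4, Marco, Cd5l and Folr2) minus that of the 14 macrophage genes was -1.14, 0.23, -2.98, 0.83, 0.89 and 0.77 in LATS KO 1 to 6. It lay between 0.12 and 0.59 in Yap OE and between -0.13 and 0.29 in TdTomato. In TdTomato 1 to 4, 11, 5, 1 and 1 of the 14 macrophage genes held 0 counts. Both lists lay near the floor set by the added 0.5 there, which compresses their difference. In LATS KO 3, Timd4, Vsig4, Cd5l and Folr2 held 0 counts, so its -2.98 depends on the added 0.5 too. LATS KO 1 and 3 were again below, and LATS KO 4, 5 and 6 above, all Yap OE libraries, but TdTomato 2, 3 and 4, which were above Yap OE by the Csf1r ratio, were not so here. LATS KO 1, a library with 3.46% unmapped reads, thus had a macrophage list level of 2.79 with a Kupffer level of 1.65, whereas LATS KO 6 paired 3.14 with 3.91. Of the 14 macrophage genes, 13 rose in LATS KO and 13 in Yap OE, with medians of 5.58 and 5.38.

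**Figure D3:**
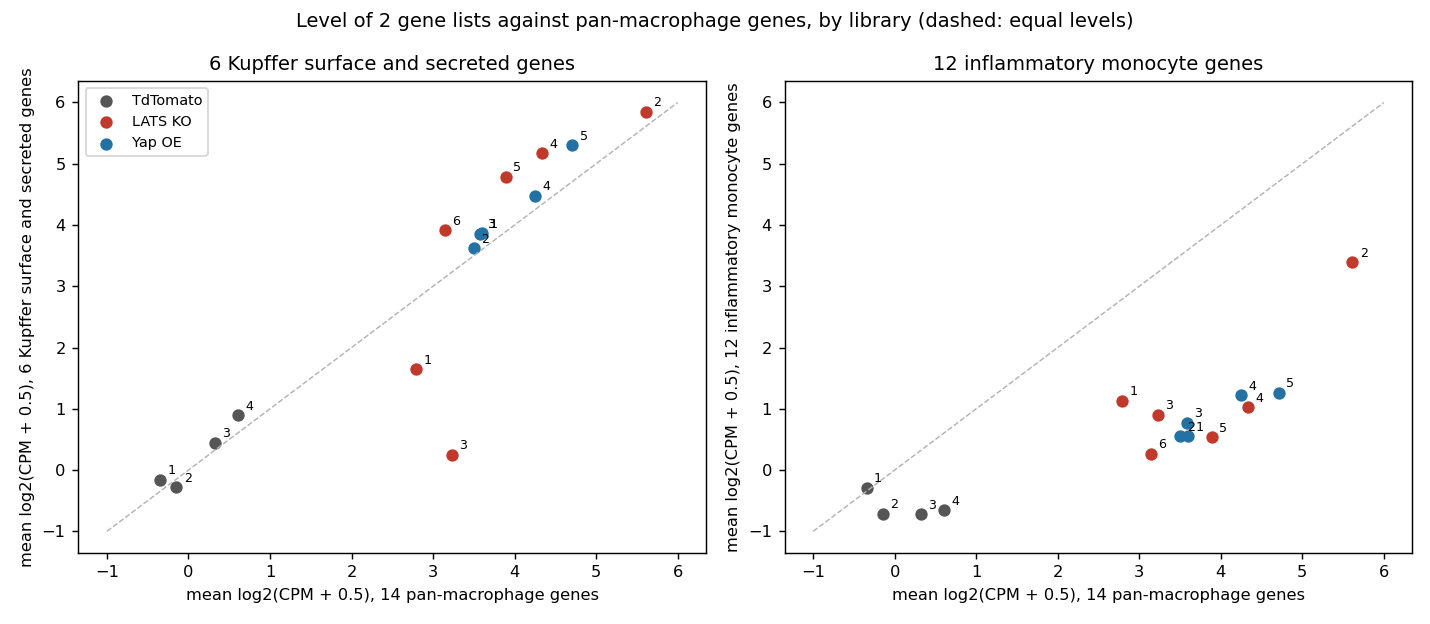
Mean log2(CPM + 0.5) of 6 Kupffer surface and secreted genes (left) and of 12 inflammatory monocyte genes (right) on the vertical axes, against that of 14 macrophage genes on the horizontal axis, 1 point per library with its number. The dashed line marks equal levels. Most libraries lie close to the line on the left, with LATS KO 1 and 3 below it by 1.14 and 2.98, and on the right the monocyte genes of LATS KO 2, at 3.39, stand above the rest. TdTomato libraries lie near the floor set by the added 0.5.

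Inflammatory monocytes are the blood cells that enter an injured liver, and 9 of 12 genes that mark them were tested. In LATS KO 8 of the 9 rose and in Yap OE 7, with median log2 fold changes of 6.23 and 5.26 when genes with 0 control counts are held at their lower bound. Over all genes, 10.04% were called higher in LATS KO and 17.9% in Yap OE. Of the 9, 3 held 0 control counts. Those 3 passed the filter only through the other groups and could show nothing but a rise, so the counts are a description only. Ccr2, the receptor that draws these cells from bone marrow and blood, had 3 control counts in all. It was at 3.84, 21.8, 0, 4.38, 1.35 and 0.60 CPM in LATS KO and at 2.49, 3.41, 3.55, 5.04 and 5.80 CPM in Yap OE. Chil3, a chitinase-like protein of monocytes, was at 65.9 CPM in LATS KO 2, 29.1 in LATS KO 3 and 4.22 in LATS KO 1, but under 1 CPM in every other library. Ly6c2, which defines the inflammatory subset, reached no more than 1.60 CPM anywhere and was not tested. The summed monocyte list was at 18.4 CPM in TdTomato 1, where 10 of the 12 genes had 0 counts, and at 1.83 to 2.44 in TdTomato 2 to 4. It ran from 13.4 to 220 in LATS KO and from 17.3 to 45.1 in Yap OE. LATS KO 2, with the 220, was the library with the highest Marco, Timd4, Vsig4 and Adgre1, and the part of the monocytes in those levels was not tested.

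Ratios between members also set LATS KO 2 apart. Marco per Clec4f count was 1.87 in LATS KO 2, 0.295 in LATS KO 1 and 0.513 in LATS KO 3. It was 0.0657, 0.0481 and 0.0800 in LATS KO 4, 5 and 6 and 0.0331 to 0.0665 in Yap OE. Timd4 per Clec4f count was steadier, at 0.0853, 0.156, 0, 0.0932, 0.0786 and 0.0946 in LATS KO and 0.0566 to 0.0963 in Yap OE. Vsig4 per Clec4f was 0.481, 0.637 and 0 in LATS KO 1, 2 and 3 and 0.259, 0.243 and 0.277 in LATS KO 4, 5 and 6. In Yap OE it was 0.366 to 0.443, between those of LATS KO 4 to 6 and those of LATS KO 1 and 2.

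Over the 15 libraries the members' log2 levels had a median Pearson r of 0.77 over 45 pairs, from -0.64 (Marco with Nr1h3) to 0.99 (Vsig4 with Adgre1). These correlations span the group differences and the 15 libraries share depth and quality differences, so they are a description only. The median r with the other 9 was 0.94 for Timd4, Vsig4 and Folr2, 0.71 for Marco, 0.29 for Id3 and -0.50 for Nr1h3. Without TdTomato 1 and LATS KO 3, the median over pairs was 0.79. The 10 genes most like the members' mean level, among 11481 others with a mean of at least 1 CPM, were Slc15a3 (r = 0.990), Ckb (0.989), Pilra (0.988), Pilrb1 (0.988), Ifi204 (0.985), Clec1b (0.984), Cd300ld (0.982), Clec12a (0.982), Abcg3 (0.982) and Siglece (0.982). Among all genes the median r with that mean was 0.21.

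**Figure D4:**
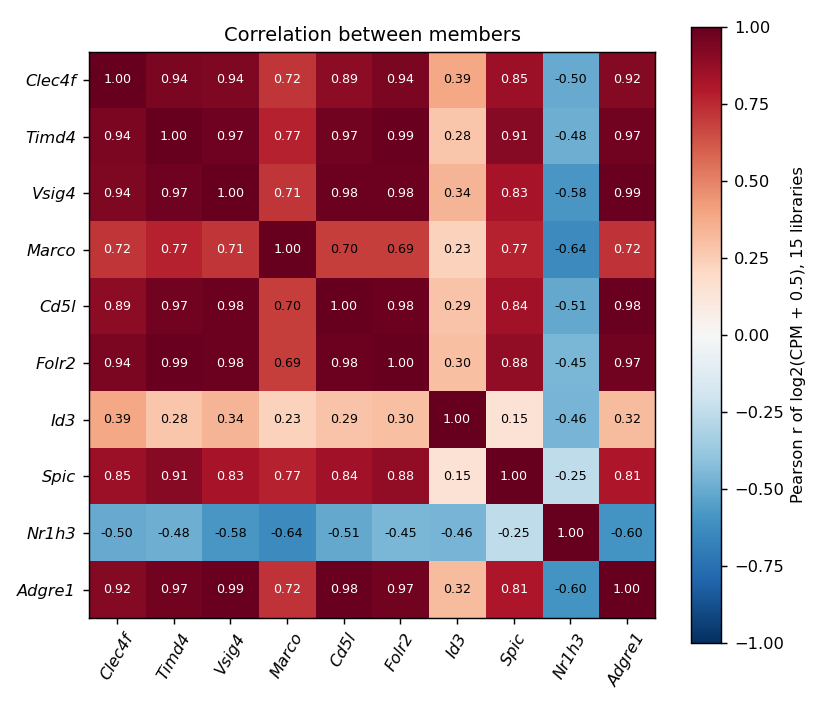
Pearson r between each pair of the 10 genes, computed on log2(CPM + 0.5) over 15 libraries, with genes on both axes and colour from -1 (blue) to 1 (red). Timd4, Vsig4, Cd5l, Folr2 and Adgre1 form a block of high values, Marco is lower, Id3 is weak, and Nr1h3 is negative with all others.

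A further 18 genes of Kupffer cells gave a mixed picture: 11 rose in LATS KO, with a median log2 fold change of 4.54, and 10 rose and 2 fell in Yap OE, with a median of 3.78. The 3 chains of complement C1q had the smallest adjusted p, C1qa rising by 6.37 ± 1.03 in LATS KO and 5.96 ± 1.02 in Yap OE, C1qb by 5.88 and 5.46, and C1qc by 6.22 and 5.70 (edgeR adjusted p from 0.00206 to 0.00483). The complement gene C6, also made by hepatocytes, was among those that fell in Yap OE, by 2.61 (edgeR adjusted p = 0.00552). The summed level of all 18 ran from 487 to 906 CPM in TdTomato, 328 to 1226 in LATS KO and 537 to 977 in Yap OE, and C6 alone made up 337 to 535 CPM of it in TdTomato. Without TdTomato 1 and LATS KO 3, 15 rose in LATS KO, and 16 rose and 2 fell in Yap OE.

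Signals of the Kupffer niche were tested as 17 of 18 listed genes, of which 4 rose in LATS KO and 9 in Yap OE, with medians of 1.76 and 2.08. Csf1, the growth factor for macrophages, was at 0, 5.24, 3.81 and 5.12 CPM in TdTomato, 180, 272, 234, 26.4, 16.05 and 9.37 in LATS KO, and 121 to 320 in Yap OE. All libraries of both groups were above the controls, and Csf1 rose by 5.10 ± 1.15 in LATS KO (edgeR adjusted p = 0.013) and by 5.92 ± 1.21 in Yap OE (edgeR adjusted p = 0.00415). LATS KO 1 and 3 thus combined 180 and 234 CPM of Csf1 with Clec4f at 6.98 and 8.67 CPM, below TdTomato 1 and above TdTomato 2 to 4. Id1, a target of bone morphogenetic proteins and relative of Id3, rose by 6.00 in LATS KO and 6.38 in Yap OE (edgeR adjusted p = 0.00549 and 0.00201), and the ligand Bmp6 by 4.02 and 5.35 (0.00764 and 0.00155). Dll4, the Notch ligand of sinusoidal endothelium, had log2 fold changes of 2.88 and 2.90 that did not pass (edgeR adjusted p = 0.0937 and 0.0546). Without TdTomato 1 and LATS KO 3, 9 niche genes rose and 1 fell in LATS KO, and 13 rose in Yap OE.

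Targets and partners of the liver X receptor that Nr1h3 encodes were tested as 14 genes. Of these, 1 rose in LATS KO, and 2 rose and 1 fell in Yap OE, with medians of 0.42 and 0.24. Arl4c rose in both, by 6.98 ± 1.02 and 6.60 ± 1.01 (edgeR adjusted p = 0.00319 and 0.00139). Pltp, a phospholipid carrier, rose in Yap OE by 2.88 ± 0.90 (edgeR adjusted p = 0.0275), and Rxra, the partner of the liver X receptors, fell there by 1.20 (edgeR adjusted p = 0.0116). Abcg1, a cholesterol exporter of macrophages, had a value of 3.25 ± 1.15 in LATS KO with an edgeR adjusted p of 0.0833. In this fit the shares are near those over all genes. Leaving out TdTomato 1 and LATS KO 3 gave 5 risen of 14 in LATS KO, and 6 risen and 2 fallen in Yap OE. There the risen shares were above those over all genes, 13.7% in LATS KO and 27.2% in Yap OE.

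Of 10 genes with which macrophages take up dying cells, 4 rose in LATS KO and 7 in Yap OE, with medians of 2.73 and 3.39. The shares called higher over all genes were 10.04% and 17.9%. Axl, a receptor of bound phosphatidylserine, rose by 7.05 ± 1.03 and 6.67 ± 1.02 (edgeR adjusted p = 0.00319 and 0.00139), Cd36, a scavenger receptor, by 4.61 and 4.94, and the bridging protein Mfge8 by 4.13 and 4.96. Cd36 was at 359 to 430 CPM in LATS KO 1 to 3 and at 63.15 to 99.9 in LATS KO 4 to 6. Mfge8 was at 178 to 199 and at 12.9 to 21.4 CPM there. Both split the group as the bile duct genes below do, and which cells made this RNA was not tested. Genes of lipid-associated macrophages, which form around lipid and scar, rose for 6 of 10 in LATS KO and 8 of 10 in Yap OE. Spp1, on that list and also a gene of bile duct cells, rose by 5.51 in LATS KO and 7.37 in Yap OE (edgeR adjusted p = 0.00764 and 0.00165). Trem2, Gpnmb and Mmp12 of that list held 0 control counts, and Lgals3 and Itgax held 3 each. These genes passed the filter through the other groups and could show almost nothing but a rise. The counts of risen genes on that list are therefore a description only. With counts pooled over each group, Trem2 was at least 81.1-fold higher in LATS KO and 49.6-fold in Yap OE against 3 counts over the control group. Of its 431 LATS KO counts, LATS KO 2 held 260 and LATS KO 3 held 128, while LATS KO 5 and 6 held 3 each, so the pooled bound does not describe each library.

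Genes of other cell types were called too, so the members did not change alone. Over all genes 10.04% were called higher and 0.973% lower in LATS KO, and 17.9% and 10.8% in Yap OE. Without TdTomato 1 and LATS KO 3 the shares were 13.7% and 3.24% in LATS KO, and 27.2% and 21.2% in Yap OE. Sinusoidal endothelial genes rose for 3 of 10 in each group (medians 2.12 and 1.87, and 7 of 10 in each without TdTomato 1 and LATS KO 3), stellate genes for 4 of 10 in LATS KO and 9 of 10 in Yap OE, and bile duct genes for 5 of 8 in each (3 of 8 in LATS KO without those libraries). Of the stellate genes, Col1a1, Lum, Col1a2 and Des held 0, 1, 3 and 3 control counts, so a rise was nearly all they could show. The summed bile duct genes were at 4517, 2047, 1496, 283, 167 and 231 CPM in LATS KO 1 to 6, against 163 to 199 in TdTomato, so that LATS KO 1, 2 and 3 stood apart. Hepatocyte genes fell for 1 of 10 in LATS KO and 4 of 10 in Yap OE (medians -0.61 and -1.51, and 1 and 6 without TdTomato 1 and LATS KO 3), and their mean log2 level was 11.18, 10.6, 10.3, 12.5, 12.7 and 12.8 in LATS KO 1 to 6. Of neutrophil genes 4 were tested, with 2 risen in LATS KO and 1 in Yap OE. In Yap OE the endothelial count of 3 of 10 and the neutrophil count of 1 of 4 were not far beyond the share over all genes. T and NK cell, B cell and dendritic cell genes were too low for most members to be tested (1, 1 and 2 tested). The B cell list's Cd22 and the dendritic cell list's Clec9a were called higher in both groups, on 1 and 0 control counts. They passed the filter through those groups, so a rise was all they could show. The other dendritic cell gene was called in neither. The T and NK cell gene had values of -2.01 in LATS KO and -2.66 in Yap OE (edgeR adjusted p = 0.236 and 0.0803). It was called lower in both without TdTomato 1 and LATS KO 3. The summed endothelial level was 103, 99.0, 33.6, 351, 322 and 251 CPM in LATS KO 1 to 6, highest in LATS KO 4, 5 and 6, and 132 to 213 in Yap OE. Its part, or that of any other cell type, in the levels of the Kupffer genes was not tested.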

How the data were processed

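Each library's table, as the authors deposited it, holds raw counts per gene in STAR's layout, unstranded and for each strand. Reads were processed with FastQC, Trimmomatic and STAR on mm10, per the submitters' processing notes, and versions were not given in the sources used here. Libraries were directional, per the labels' protocols, and the reverse-strand counts were used, since the forward column held 0.966% to 1.99% of stranded counts. Reads assigned to no gene (14.2% to 92.5%) stayed out. In R 4.3.3, edgeR 4.0.16 (TMM, default filter, robust quasi-likelihood test, 12 residual degrees of freedom, Benjamini-Hochberg threshold 0.05) was fitted once to 15 libraries. CPM uses TMM-scaled sizes, and log2 levels add 0.5. The tests were tested on simulated data. Alternatives used RLE, DESeq2 1.42.0, limma 3.58.1, other filters, the unstranded counts, a replicate block, fewer groups and libraries left out. Gene positions are GENCODE's for mm10. Named genes were all members, from each list up to 3 genes with the smallest adjusted p, the 10 most alike, list genes with libraries at 0, and the manipulated genes. Ccr2, Ly6c2, C6 and Dll4 were named after their values were seen. One list gene is not reported here by name. The members and lists were chosen with earlier results of these data known.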

Additional observations from a re-analysis of the deposited data

Results flagged for a closer look

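Within the 3 groups, 30 sets of values (10 genes in 3 groups) were examined for a library far from the others, and 4 had one. By the rule's nominal rate chance gives about 1 in 20, a rate that was not checked for these values. Marco in LATS KO 2 was at 179 CPM, with the next LATS KO library at 9.65 CPM. Folr2 in Yap OE 5 was at 20.03 CPM, with the next at 10.4 CPM. Spic in Yap OE 5 was at 1.41 CPM, with the next at 0.519 CPM, and Spic in TdTomato 4 was at 0.048 CPM on 1 count, with the other 3 controls at 0, so that a single count set it apart.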

How the results depend on the processing

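No called value changed direction under the alternatives run. The 8 members called in LATS KO became 0 when only the compared groups entered the fit and 0 with the replicate block, and ran from 1 (without TdTomato 2) to 8 when 1 library was left out. The other 7 alternatives gave 7 or 8. In Yap OE the 9 calls ran from 7 to 10 over leaving out 1 library and from 8 to 10 otherwise. Between Yap OE and LATS KO, voom with quality weights called 4 members, all lower in Yap OE (Timd4, Marco, Spic and Nr1h3 at -1.11, -1.45, -1.55 and -0.88). Against TdTomato, voom moved Clec4f to 5.63 in LATS KO and 4.93 in Yap OE, Vsig4 to 6.48 and 6.34, Cd5l to 6.47 and Marco to 5.48 in LATS KO, and Timd4 to 4.43 in Yap OE. Over all genes, calls in LATS KO were 1438, against 2894 with DESeq2, 3504 with voom, 1 with only the compared groups, 740 with the replicate block, 2245 without TdTomato 1 and LATS KO 3, and 588 to 1798 with 1 library left out. In Yap OE they were 3744, against 8872 with voom, 6416 without the 2 libraries, and 2585 to 4973 with 1 left out. Between Yap OE and LATS KO they were 129, against 779 with DESeq2, 7325 with voom, 13 with the replicate block, 1688 without the 2 libraries, and 36 to 389 with 1 left out. The cause was not tested. The labels do not say that shared numbers pair libraries, and deviations of same-numbered libraries correlated from -0.26 to 0.29. RLE scaling moved the median gene in Yap OE by 0.18 on the log2 scale. Depth limits Spic, Timd4 and the control values of most members, which rest on few counts.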
